A study of Mus musculus with 10 samples.

Results

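In libraries made from splenic T cells, 10 genes that mark macrophages of the spleen were followed. These 10, of 20617 genes in the table, were C1qa, C1qb and C1qc (complement), Fcgr1 and Fcgr4 (Fc receptors), Csf1r and Axl (receptor tyrosine kinases), Cd163 and Cd68 (scavenger and lysosomal glycoproteins) and Cybb (an oxidase subunit). They were listed by name, with earlier results of these data known. None passed the test between libraries of OVA-treated and PBS-treated mice. Among the 6 genes above 3 reads in every library, Csf1r had the largest log2 fold change, with 449.8 ± 191 (SD, n = 5) normalized counts in OVA and 227 ± 91.8 in PBS libraries (adjusted p = 0.372, limma). All but Axl varied over a wide range from library to library and correlated positively with each other, and Axl stayed nearly level.

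The study asks how asthma in mice bears on optic glioma, and RNA was sequenced to find what T cells make after asthma induction. All 10 libraries came from spleen CD3+ T cells of Nf1OPG mice, which carry Nf1 flox/mut with GFAP-Cre on a C57BL/6 background, so that every cell is heterozygous for Nf1 and neuroglial progenitors lose the other allele. The 5 control libraries (PBS, replicates 1 to 5) came from mice given saline. The 5 OVA libraries (replicates 6 to 10) came from mice sensitized to ovalbumin, an egg protein, with 0.5 mL of a solution of 16 µg/mL in aluminum hydroxide at 2 mg/mL, injected into the peritoneum weekly for 2 weeks, and then challenged through the nose. Mice were 4 weeks old when treatment began and 6 weeks old when it ended, and the age at which the spleens were taken is not given in the sources used here. The labels name CD4 and CD8a kits for T cell isolation and do not say how these served to obtain the CD3+ cells sequenced. Whether each library is 1 mouse or a pool is not stated, and p-values measure the spread between these libraries. The sex of the mice is not given in the labels. Xist, the RNA of the inactive X of females, was at 369 to 656 normalized counts in OVA replicates 6, 7, 8 and 10. It was at 4.30 or less in every other library. The part of sex in any difference between OVA and PBS libraries was not tested.

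Macrophages of the splenic red pulp engulf worn red cells and recycle their iron, and those of the marginal zone sample blood. They need signals through the receptor for colony-stimulating factor 1, make the C1q that starts the classical complement pathway, and take up antibody-coated particles through Fc gamma receptors. These genes are not markers of T cells, and RNA from a few other cells in a T cell preparation can carry them. Which cells gave the reads in these libraries was not tested. In bulk libraries, fewer cells of a type and less RNA per cell cannot be told apart.

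The values are normalized counts, that is reads divided by a size factor for each library. A read was worth 0.626 normalized counts in OVA replicate 7, the deepest library, and 2.77 in PBS replicate 3, which held 6835696 reads. The others held between 14711683 and 29915782 reads. A gene at 3 reads or fewer was taken as at the floor, which stood at 8.31 normalized counts for the shallow PBS replicate 3 and at 1.88 to 3.60 for the rest, and covers counting error only. In the table the names and the values do not stand on the same rows, so that the values of each gene were read 3 rows above its name (Axl, C1qa, C1qb, C1qc, Cd68, Cd163), 5 rows above (Csf1r, Cybb) or 7 rows above (Fcgr1, Fcgr4). An alignment to the gene annotation that knew nothing of the groups found the same distance for all 10, with a probability of at least 0.998 for 9 of them and 0.843 for Csf1r. As a check of the label, 8 T cell genes such as Cd3e and Cd4 had a median expression percentile of 98.5 when read 3 rows above their names, and their summed level was 55864 to 94579 normalized counts in PBS and 59179.7 to 82666 in OVA libraries.

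Per kilobase of exon, and averaged over all 10 libraries, Cd68 had the highest level at 175 normalized counts per kb, followed by Cybb at 144, Csf1r at 58.6, C1qb at 42.7 and Axl at 33.7. C1qa at 12.5, Fcgr4 at 11.2, Cd163 at 4.81, Fcgr1 at 3.38 and C1qc at 2.88 were lower. Neighbours in this order often overlapped between libraries. Cd68 ranged from 63.9 to 302 and Cybb from 63.5 to 398 normalized counts per kb, so the order of these top 2 differed by less than their spread. Each of the 10 genes was detected in at least 1 library above 3 reads, C1qc in only 4 of 10 and Fcgr1 and Fcgr4 in 6 of 10.

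Promoters are shown because 9 of the genes correlated with each other over the libraries. Sequences of 250 bases before the start of transcription were taken from RefSeq (GRCm38.p6), where 8 of the 10 genes had one. C1qa and Csf1r had none. The short purine-rich motif GAGGAA, the core to which the myeloid factor PU.1 binds, was searched on both strands (TTCCTC on the other) and stood in 6 of these 8, against 23.3% of all 32851 promoters. The 6 are Axl, C1qb, C1qc, Cd68, Fcgr1 and Fcgr4, so the motif does not separate Axl from the others. Of these, 5 are shown 5′ to 3′ on the strand of the gene with the motif in capitals, at chr4:136886201-136886450 (C1qb, minus strand), chr3:96293970-96294219 (Fcgr1, minus strand), chr1:171018676-171018925 (Fcgr4, plus strand), chr11:69666171-69666420 (Cd68, minus strand) and chr7:25788734-25788983 (Axl, minus strand). A match describes letters only.
C1qb: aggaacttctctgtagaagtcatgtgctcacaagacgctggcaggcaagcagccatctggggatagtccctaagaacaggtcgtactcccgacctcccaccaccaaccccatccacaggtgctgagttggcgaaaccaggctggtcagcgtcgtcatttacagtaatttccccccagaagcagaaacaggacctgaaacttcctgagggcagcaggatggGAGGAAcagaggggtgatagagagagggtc
Fcgr1: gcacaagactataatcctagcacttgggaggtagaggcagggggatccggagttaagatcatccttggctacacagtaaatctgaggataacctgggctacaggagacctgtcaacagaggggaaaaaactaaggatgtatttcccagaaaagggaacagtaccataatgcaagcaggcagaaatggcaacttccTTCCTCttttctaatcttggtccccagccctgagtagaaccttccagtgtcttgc
Fcgr4: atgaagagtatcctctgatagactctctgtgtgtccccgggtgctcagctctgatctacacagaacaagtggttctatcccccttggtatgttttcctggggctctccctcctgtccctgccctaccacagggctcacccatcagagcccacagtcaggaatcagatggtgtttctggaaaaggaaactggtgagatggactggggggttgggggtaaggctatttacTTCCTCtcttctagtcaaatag
Cd68: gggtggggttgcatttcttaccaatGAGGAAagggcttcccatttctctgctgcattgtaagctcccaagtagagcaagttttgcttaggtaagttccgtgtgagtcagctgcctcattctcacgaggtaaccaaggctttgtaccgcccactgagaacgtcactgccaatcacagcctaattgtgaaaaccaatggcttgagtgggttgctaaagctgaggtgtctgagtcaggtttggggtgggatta
Axl: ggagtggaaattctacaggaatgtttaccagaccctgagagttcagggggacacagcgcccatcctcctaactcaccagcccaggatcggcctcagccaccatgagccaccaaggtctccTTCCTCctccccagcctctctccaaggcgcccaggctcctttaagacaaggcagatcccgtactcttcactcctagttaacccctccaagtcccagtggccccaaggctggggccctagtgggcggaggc

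The 3 chains of C1q, the recognition molecule of classical complement, lie side by side on the minus strand of chromosome 4 (GRCm38): C1qb at chr4:136880129-136886188, C1qc at chr4:136889804-136893066 and C1qa at chr4:136895917-136898804. C1qb had 30.0, 83.5, 36.0, 18.3 and 4.51 normalized counts in PBS replicates 1 to 5 and 12.0, 54.5, 17.1, 101 and 108 in OVA replicates 6 to 10. The 2 highest were OVA replicates 9 and 10 and the lowest was PBS replicate 5, with a 23.9-fold range, and the groups overlapped. The log2 fold change of C1qb, OVA minus PBS on log2(normalized count + 1), was 0.76 ± 0.73 (SE) with a 95% interval from -0.80 to 2.32 and an adjusted p of 0.764 in limma. It was 0.21 without PBS replicate 5 and 0.43 to 0.45 without OVA replicate 10 or 9, and 1.20 without PBS replicate 2 and 1.19 without OVA replicate 6.

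C1qa had 8.43, 30.1, 19.4, 5.38 and 3.61 normalized counts in PBS and 4.5, 15.0, 1.90, 20.4 and 21.2 in OVA replicates. PBS replicate 2 was the highest of all and OVA replicate 8 the lowest. Its log2 fold change was -0.11 ± 0.69 (adjusted p = 0.973, limma), and its interval, from -1.59 to 1.37, leaves room for a change of over 2-fold in either direction. C1qc was barely detected. It had 0, 12.9, 16.6, 3.23 and 0 normalized counts in PBS and 7.50, 1.88, 0, 2.40 and 11 in OVA replicates, and exceeded 3 reads in 4 libraries. Its log2 fold change of -0.01 ± 0.92 therefore says little at this depth, with an interval from -1.98 to 1.96. Over all 10 libraries C1qb had 506 reads, C1qa 136 and C1qc 53, although the 3 chains assemble in equal number in the protein.

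Fc gamma receptors bind the constant part of IgG. Fcgr1 (chr3:96282909-96293970, minus strand), the high-affinity receptor, had 0.937, 7.75, 27.7, 0 and 1.80 normalized counts in PBS and 15.0, 6.26, 0, 13.2 and 15.0 in OVA replicates. The highest value was PBS replicate 3, in which 10 reads stood behind it. Fcgr4 (chr1:171018920-171029762, plus strand), an activating receptor of myeloid cells, had 15.0, 6.89, 8.31, 2.15 and 0 normalized counts in PBS and 31.5, 9.39, 0, 19.2 and 48.8 in OVA replicates. The highest 3 values were all from OVA libraries, above every PBS library, and OVA replicate 8 was at 0. Neither receptor passed the test. The log2 fold change of Fcgr4 was 1.30 ± 0.99 (95% interval -0.81 to 3.42, adjusted p = 0.688, limma), with means of 21.8 ± 19.1 (SD, n = 5) in OVA and 6.47 ± 5.84 in PBS libraries, and that of Fcgr1 was 0.85 ± 0.95 (-1.18 to 2.89, adjusted p = 0.801). Single libraries moved both: Fcgr4 was at 0.71 without PBS replicate 5, 0.81 without OVA replicate 10 and 2.22 without OVA replicate 8, and Fcgr1 ranged from 0.33 without PBS replicate 4 to 1.59 without OVA replicate 8.

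Csf1r, the receptor for colony-stimulating factor 1 on which macrophages depend (chromosome 18, plus strand), had 146, 266, 246, 351 and 127 normalized counts in PBS and 670.2, 343, 180.1, 544 and 511 in OVA replicates. OVA replicates 6, 9 and 10 lay above every PBS library, and OVA replicate 8 lay within the PBS range. The log2 fold change of Csf1r was 0.95 ± 0.35, with a 95% interval from 0.20 to 1.69, and it had the smallest unadjusted p of the 10 genes, 0.0161 in limma. After adjustment over 20249 genes p was 0.372, and the exact two-sided permutation test over libraries gave p = 0.0714. Exons of Hmgxb3, a gene on the other strand, overlap those of Csf1r. If the libraries do not keep the strand, Csf1r reads can come in part from Hmgxb3, and this part was not tested.

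**Figure D1:**
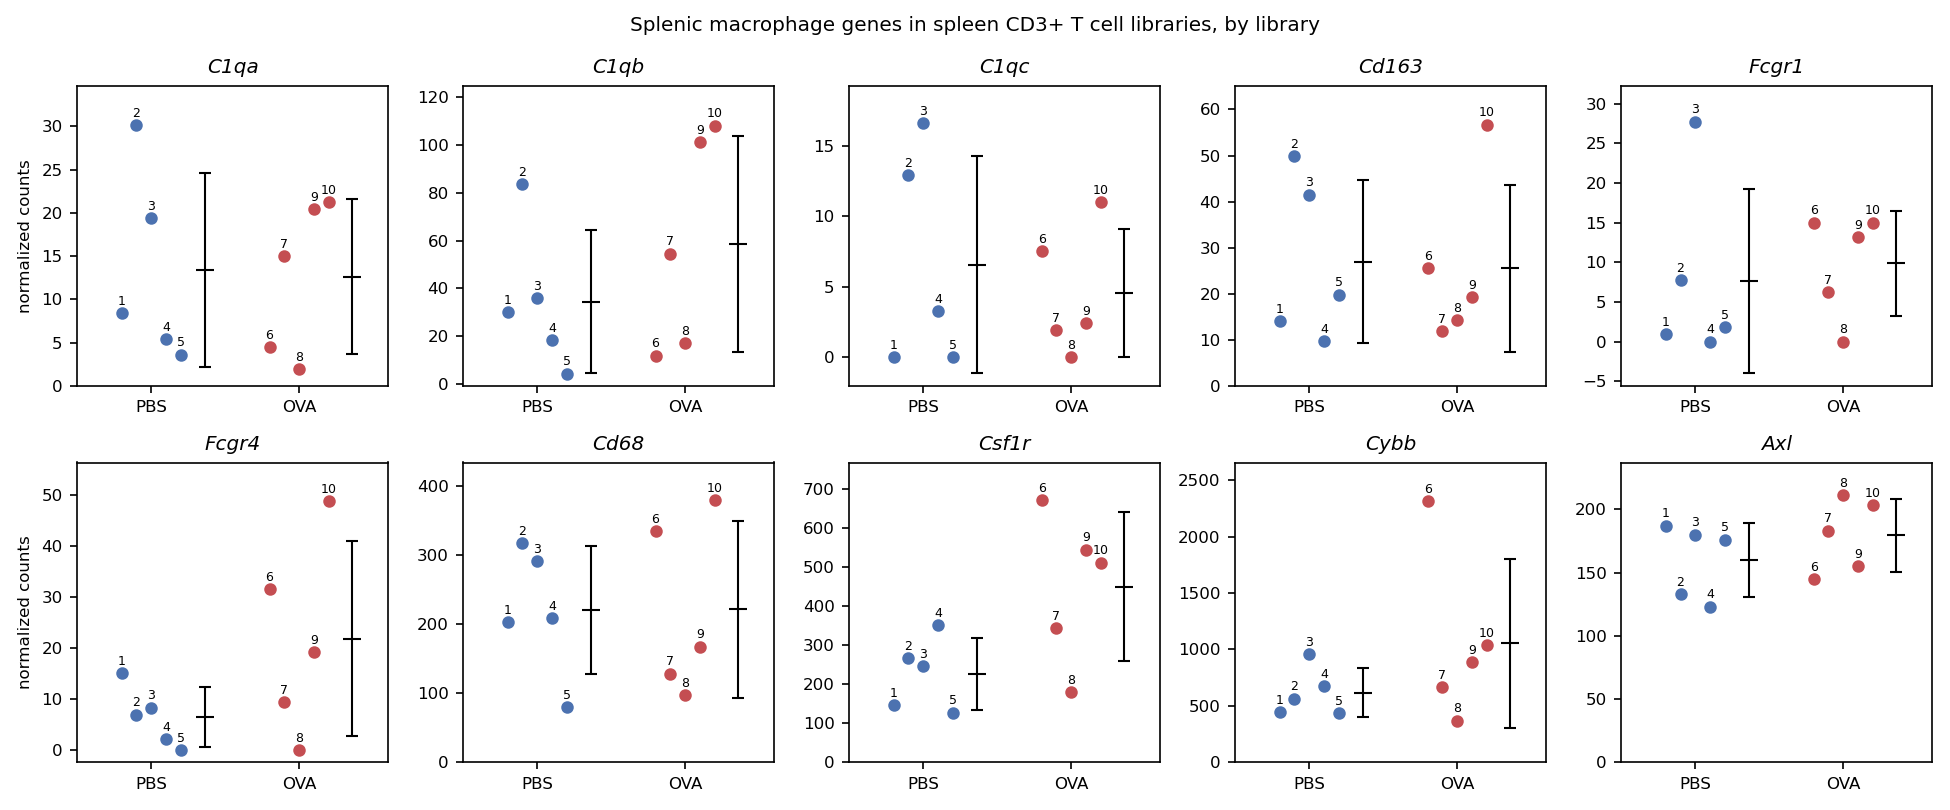
Normalized counts (vertical axis, linear) of the 10 macrophage genes in each of the 5 PBS (blue) and 5 OVA (red) libraries, with the replicate number at each point. Black bars give the mean and SD of each group. The groups overlap for every gene, OVA replicate 6 is far above the rest for Cybb (2314), and Axl stays between 123 and 211.

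Cybb, the membrane subunit gp91phox of the phagocyte NADPH oxidase (chrX:9435252-9487772, minus strand), had 445, 565, 961, 678 and 439 normalized counts in PBS and 2314, 669, 369, 885 and 1036 in OVA replicates. OVA replicate 6 had by far the most and OVA replicate 8 the least. The log2 fold change of Cybb was 0.57 ± 0.37 (95% interval -0.23 to 1.37, adjusted p = 0.633, limma). It was 0.22 ± 0.30 without OVA replicate 6 and 0.88 ± 0.32 without OVA replicate 8. The summed level of the 8 neutrophil genes was highest in OVA replicate 6, at 70830.3 normalized counts. It was 447 to 14129.8 in the other OVA libraries and 414 to 6961 in PBS libraries. Each neutrophil gene but Cxcr2 was highest in OVA replicate 6, and Cxcr2 in PBS replicate 2 (226 against 195). The summed level of the B cell genes was also highest in OVA replicate 6, at 7459.6. Neutrophils use the same oxidase, and the part of neutrophil or B cell RNA in the Cybb level was not tested. Cybb lies on the X chromosome, and Xist, the RNA of the inactive X of females, was at 369 to 656 normalized counts in OVA replicates 6, 7, 8 and 10 and at 4.30 or less in the other 6 libraries, so that libraries with Xist were all in the OVA group. The part of this in the Cybb level was not tested.

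Cd68, a glycoprotein of macrophage lysosomes (chr11:69664213-69666154, minus strand), had 203, 317, 291, 208 and 80.3 normalized counts in PBS and 334, 128, 96.7, 167 and 379 in OVA replicates. The group means were nearly the same, 219.8 ± 92.6 (SD, n = 5) in PBS and 221 ± 127 in OVA libraries. Cd163, the scavenger receptor for complexes of haemoglobin and haptoglobin (chr6:124304656-124330528, plus strand), had 14.1, 49.9, 41.5, 9.68 and 19.8 normalized counts in PBS and 25.5, 11.9, 14.2, 19.2 and 56.7 in OVA replicates. Both genes were highest in OVA replicate 10. The log2 fold change was -0.05 ± 0.41 for Cd68 (95% interval -0.94 to 0.83) and -0.05 ± 0.53 for Cd163 (-1.18 to 1.08), with adjusted p of 0.978 and 0.984 in limma. Scaling each library to the same total, which moved the median log2 fold change of all genes from 0.04 to 0.15, gave 0.06 for Cd68 and 0.05 for Cd163, so that their sign turned with the scaling.

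Axl, a receptor tyrosine kinase of the TAM family that helps phagocytes take up dying cells (chr7:25757273-25788706, minus strand), had 187, 133, 180, 123 and 176 normalized counts in PBS and 145, 183, 211, 155 and 203 in OVA replicates. Its highest and lowest libraries differed by 1.72-fold, the least of the 10 genes, and the groups overlapped. The log2 fold change of Axl was 0.17 ± 0.20 (95% interval -0.25 to 0.59, adjusted p = 0.810, limma), the narrowest interval of the 10. PBS replicate 5 and OVA replicate 8, whose median rank over the other 9 genes was 2 of 10 libraries counted from the lowest, had 176 and 211 normalized counts of Axl.

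**Figure D2:**
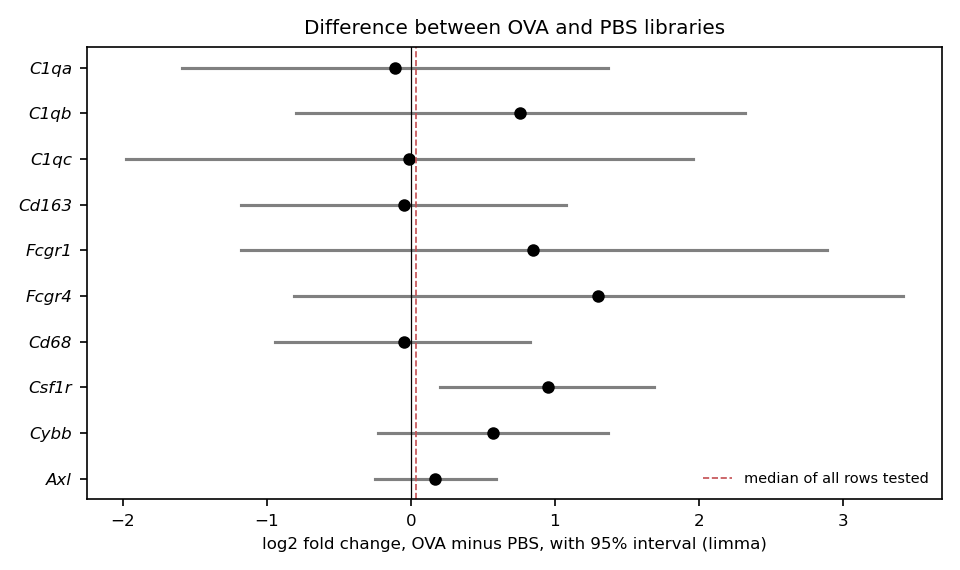
Log2 fold change of each macrophage gene, OVA minus PBS on log2(normalized count + 1), with its 95% interval from limma (horizontal axis, log2 units). The dashed line is the median of all 20249 rows tested, 0.04. The interval of Csf1r (0.20 to 1.69) lies above 0, the other 9 cross it, and the Axl interval is the narrowest.

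Across the 10 genes, 0 had an adjusted p under 0.05 in limma, where 0.00494% of all rows tested did. Csf1r was the only 1 with an unadjusted p under 0.05, against 9.77% of all rows. No gene had groups that did not overlap, against 1.78% of all rows. With edgeR on the recovered reads 0 passed the adjusted threshold (0.00988% of all rows) and 1, Csf1r, the unadjusted one (9.06%). With DESeq2 0 passed the adjusted threshold (0.825%) and 2, Csf1r and Cybb, the unadjusted one (9.27%). Of the 10 log2 fold changes 6 were above 0, as were 54.5% of all rows, and their median was 0.37 against 0.04. The median SD of the log2 values over the 10 libraries was 1.01 for the macrophage genes and 0.50 for all rows, and the median standard error was 0.61 against 0.32.

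Summed over the 10 genes, their reads made up 48.5, 79.7, 96.6, 71.7 and 45.1 RPM (reads relative to all reads recovered from the library) in PBS replicates 1 to 5 and 198, 75.9, 47.8, 109 and 140 in OVA replicates 6 to 10. OVA replicates 6, 9 and 10 lay above every PBS library, and OVA replicate 8 lay near PBS replicate 5, the lowest. The means were 114 ± 58.4 (SD, n = 5) in OVA and 68.3 ± 21.6 in PBS libraries. In OVA replicate 6, Cybb alone gave 3087 of the 4748 reads, and the 3 C1q chains there summed to 24.0 normalized counts against 140.1 in OVA replicate 10. OVA replicate 10 held the highest value of 4 of the 10 genes. PBS replicate 5 was the lowest for C1qb, Cd68 and Csf1r, and OVA replicate 8 for C1qa and Cybb. Both were at 0 for C1qc and Fcgr4, and OVA replicate 8 also for Fcgr1. Among the 9 genes other than Axl, Pearson's r between log2 values over the 10 libraries was above 0 in all 36 pairs, with a median of 0.62 and a range from 0.15 to 0.86. Against the mean of the other 9 genes, r was 0.64 to 0.83 for these genes and -0.16 for Axl. These correlations describe 10 libraries whose genes share depth and cell content.

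The marker list with the highest r differed from gene to gene, and the next list was often close. C1qa, C1qb and Fcgr1 followed the list of 15 red pulp and resident macrophage genes most closely, with r of 0.84, 0.81 and 0.87 over the 10 libraries. Cd68 and C1qc followed the 11 monocyte and dendritic cell genes, at 0.88 and 0.86. Csf1r and Cybb followed the 8 neutrophil genes, at 0.88 and 0.85, and Fcgr4 the 8 B cell genes, at 0.90. Cd163 had close values with the 5 erythroid genes (0.74), monocyte and dendritic cell genes (0.72) and red pulp and resident macrophage genes (0.71). All but Axl had a negative r with the 8 T cell genes, from -0.33 to -0.83, and for Axl it was 0.15. With 10 libraries neighbouring values of r are not told apart, such as 0.85 and 0.80 for Cybb with neutrophil and B cell genes. C1qc, Fcgr1 and Fcgr4 were above 3 reads in only 4, 6 and 6 libraries, so their r rests in part on values at the floor.

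**Figure D3:**
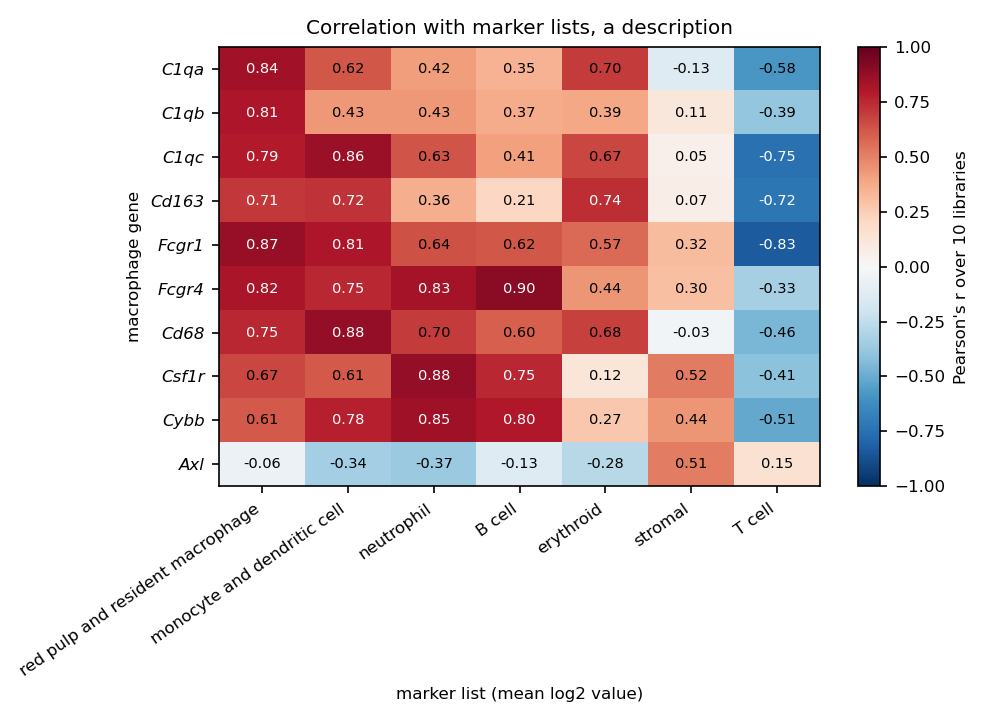
Pearson's r over 10 libraries between each macrophage gene (vertical axis) and the mean log2 value of each marker list (horizontal axis), from -1 (blue) to 1 (red). Csf1r and Cybb are highest with the neutrophil list (0.88 and 0.85), and Fcgr1, above 3 reads in only 6 libraries, with red pulp macrophages (0.87). Axl is at or below 0.15 with all lists but the stromal one (0.51).

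Between the groups, none of the neutrophil, B cell, erythroid or stromal genes had an adjusted p under 0.05 in limma. Over all rows, 54.5% had a log2 fold change above 0 and 9.77% an unadjusted p under 0.05. All 8 neutrophil genes had a log2 fold change above 0, with 4 at an unadjusted p under 0.05 and a median of 1.89, and their summed levels overlapped. All 8 B cell genes did, with 3 at an unadjusted p under 0.05 and a summed level of 892 to 2802 normalized counts in PBS and 954 to 7459.6 in OVA libraries. All 5 erythroid genes were below 0, with 1 under the unadjusted threshold, and summed to 2183 to 12252 in PBS and 333 to 7252 in OVA libraries. The 6 stromal genes used, such as Dcn and Col1a1, all had an unadjusted p under 0.05. Their summed levels did not overlap, at 7.75 to 60.9 in PBS and 112 to 185 in OVA libraries. The list holds Dcn, which the study drew from these same libraries, so its part in both results was fixed in advance. Dcn, Col3a1 and Serping1 were each at or under 3 reads in 5 of 10 libraries, and Col1a1 and Col1a2 in 3. Dcn had a log2 fold change of 3.85 ± 0.59 (adjusted p = 0.11, limma), with means of 0.554 normalized counts in PBS and 20.4 in OVA libraries. The study tested these libraries with DESeq2 and reports Dcn as raised in T cells, with PCR and a protein assay of T cell medium beside it. The share of neutrophils, B cells, erythroid and stromal cells in the levels of the macrophage genes was not tested.

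Of the 15 red pulp and resident macrophage genes, 13 had a log2 fold change above 0 and 0 had an unadjusted p under 0.05, with a median of 0.20. The most abundant were Lyz2, lysozyme, which neutrophils also make, with a mean of 3386 normalized counts over all libraries, Maf with 783, a factor that T cells also express, and Slc40a1, the iron exporter ferroportin, with 248. Adgre1, Hmox1, Sirpa and Itgad had means of 64.7, 95.2, 73.7 and 26.8 and were above 3 reads in every library. Some others of the list were near 0. Timd4, Siglec1 and Marco had means of 1.47, 2.46 and 2.76 normalized counts over all libraries, and each was at 0 in at least 1 library. Spic, the factor of red pulp macrophages, had a mean of 8.03. Vcam1, an adhesion molecule of red pulp macrophages, had 120.3 ± 98.6 (SD, n = 5) normalized counts in PBS and 199.5 ± 124 in OVA libraries (log2 fold change 0.94 ± 0.69), and Slc40a1 had 273 ± 184 and 223 ± 141 (-0.31 ± 0.50). Of the 11 monocyte and dendritic cell genes, 6 had a log2 fold change above 0, with a median of 0.08 and 0 at an unadjusted p under 0.05.

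**Figure D4:**
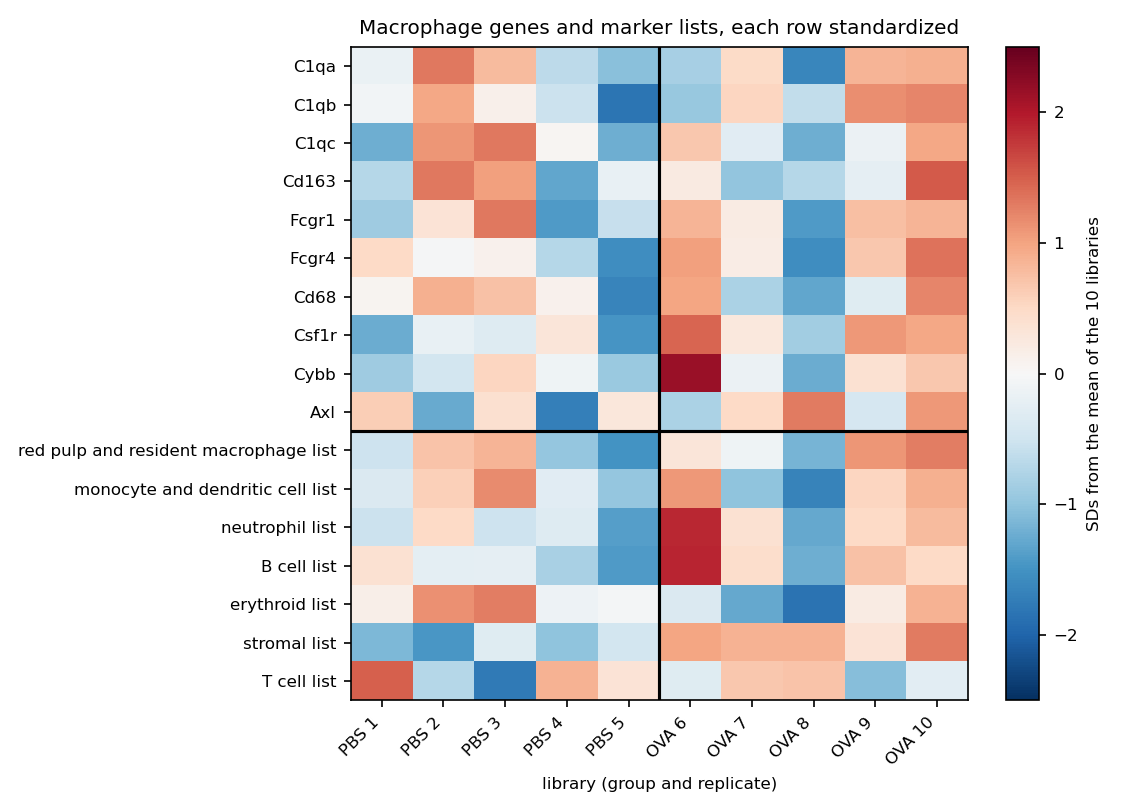
Log2 values of the macrophage genes (above the line) and mean log2 values of the marker lists (below), each row standardized over the 10 libraries (columns), from low (blue) to high (red) in SDs. PBS replicate 5 and OVA replicate 8 are low for most macrophage genes and for the macrophage, neutrophil and B cell lists, OVA replicate 6 is high for Cybb, Csf1r and the neutrophil and B cell lists, and Axl follows another order.

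Genes that work with the 10 were counted in 5 groups, and none of them had an adjusted p under 0.05 in limma. In the classical complement group all 7 genes measured had a log2 fold change above 0, against 54.5% of all rows, with a median of 0.79. Of these, C2 was at 0.03 ± 0.57, and C4b and C3ar1 were at or under 3 reads in 6 and 8 of 10 libraries. An unadjusted p under 0.05 was reached by 2 (C1ra and C1s1, the proteases of the C1 complex), against 9.77% of all rows. C1s1 was at 0 in every PBS library and had a mean of 3.74 normalized counts in OVA libraries. It therefore entered the test only through OVA libraries and could only have a change above 0, so its p is no support. It had only 25 reads in all and was at or under 3 reads in 7 of 10 libraries. C1ra had a mean of 9.13 normalized counts and an unadjusted p of 0.0483 in limma. C3, the central complement protein and the most abundant of the group, had 134 ± 85.3 normalized counts in PBS and 244 ± 144 in OVA libraries (log2 fold change 0.94 ± 0.49, adjusted p = 0.553). C5ar1, the receptor for C5a, had 59.5 ± 51.9 and 139 ± 187 (0.74 ± 0.87, adjusted p = 0.813), and its highest library was OVA replicate 6.

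Of the other Fc gamma receptors and their signalling chains 3 of 4 were above 0, with a median of 0.11. Fcer1g, the signalling chain that Fcgr1 and Fcgr4 need, had a log2 fold change of 0.20 ± 0.47 and Fcgr2b, the inhibitory receptor, 0.18 ± 0.46. Of the oxidase partners of Cybb 2 of 4 were above 0, with a median of 0.13. Ncf1, the cytosolic subunit p47phox, had 465 ± 88.2 normalized counts in PBS and 608 ± 208 in OVA libraries (0.34 ± 0.21, adjusted p = 0.612). Cyba, the membrane partner p22phox, had 8087 ± 2639 and 6728 ± 972 (-0.22 ± 0.19, adjusted p = 0.741).

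Cathepsins and cystatin C, which act in lysosomes or inhibit their proteases, had 3 of 8 log2 fold changes above 0 and a median of -0.10. Ctsd, the most abundant, was at -0.07 ± 0.17, Cst3, cystatin C, at -0.33 ± 0.25 and Ctsc at -0.28 ± 0.14 (adjusted p = 0.914, 0.693 and 0.528). Of the ligands and relatives of Axl and Csf1r, 3 of 6 were used. Pros1, which encodes protein S, a ligand of TAM receptors, was at 0.43 ± 0.27, Tyro3, a TAM receptor, at -0.24 ± 0.29, and Mertk, the TAM receptor of resident macrophages, at 0.16 ± 0.86 with a mean of 2.37 normalized counts.

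Among 13922 rows with a mean of at least 10 normalized counts, the 8 most like the mean of the 10 genes over the 10 libraries were I830077J02Rik (r = 0.975), Adgre4 (0.946), Ctsh (0.931), Lyl1 (0.930), Irf5 (0.919), Pafah2 (0.914), Tlr13 (0.912) and Lifr (0.905). Irf5, an interferon regulatory factor of myeloid cells, had 107 to 334 normalized counts in PBS and 158 to 375 in OVA libraries, and Ctsh, cathepsin H, 82.1 to 343 and 68.3 to 435. PBS replicate 5 and OVA replicate 8 were the lowest in both. None of the 8 had an adjusted p under 0.05 in limma, and their log2 fold changes ran from -0.05 for Lifr to 1.14 for Tlr13.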

How the data were processed

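Libraries of spleen CD3+ T cells were prepared with a TruSeq RNA kit. Per the submitters' processing notes and the methods of the study, reads were demultiplexed with bcl2fastq, aligned with STAR 2.6.1d to mm10 (GRCm38, Ensembl annotation) and counted in Partek Flow 9.0. The deposited values are a signal, counts that the authors divided by median-ratio size factors. In each library at least 99.9% of values lay within 0.1 of a whole read, so reads were recovered for edgeR 4.0.16 and DESeq2 1.42.0.

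The 10 genes, the gene lists and the tests were chosen with earlier results of these data known. The limma test (3.58.1, R 4.3.3) ran on log2(normalized count + 1) with its trend option over 20249 rows whose mean reached 1, p-values were adjusted after Benjamini and Hochberg, and single genes by exact two-sided permutation, whose smallest p is 0.00794. The distance between names and values was estimated with a hidden Markov model on GENCODE M21, which holds 97.7% of the names. Other genes were used where its probability was above 0.9 (93.7% of rows) or where their name stands between 2 of the 10 genes of one distance, which brought in Csf3r at a probability of 0.864. Scripts were tested on simulated data.

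All 10 genes are named. For each partner list, up to 3 genes were to be named, the one with the highest mean and those with the largest change at a mean of at least 10. Mertk, C1ra, C1s1 and the marker genes were named for their role after their values were seen. Gas6, Il34, Bgn and Pdgfra were not analysed here, and Csf1 and Treml4 were placed with too low a probability.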

Additional observations from a re-analysis of the deposited data

Results flagged for a closer look

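Fcgr1 in PBS libraries had 1 value apart from the other 4. PBS replicate 3 had 27.7 normalized counts, and the next highest PBS library had 7.75, so that this gap was 0.72 of the range of the group, above the limit of 0.71 for 5 samples (Dixon). It rests on 10 reads in the shallowest library. In all 34 groups of 5 were examined, of which chance gives about 1 in 20, or 1.7.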

How the results depend on the processing

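The count of all genes with an adjusted p under 0.05 was 1 in the main limma test, 0 with a pseudocount of 0.1 or quantile normalization, 2 with edgeR, 167 with DESeq2 and between 0 and 135 with 1 library left out (135 without PBS replicate 5). None of the 10 macrophage genes passed that threshold under any alternative, nor did its groups separate. A pseudocount or a minimum mean leaves the order of the values as it is, so overlap could not change there. Of 198 alternative log2 fold changes of the 10 genes, 170 kept their direction and 28 reversed, all of them in 5 genes. The 198 include the most probable distance, which read the same rows as the main test and could not reverse, and the names as listed. C1qc was at 0.11 with a pseudocount of 0.5, 0.51 with 0.1 and 0.05 with equal totals. Cd68 was at 0.06 with equal totals, 0.03 with edgeR and 0.01 with DESeq2, and Cd163 at 0.05 with equal totals. With the names as listed C1qb was at -0.81, C1qc at 0.46 and Cd163 at 2.42, since other rows are then read. With 1 library left out the ranges that crossed 0 were -0.43 to 0.35 for C1qa, -0.51 to 0.52 for C1qc, -0.38 to 0.19 for Cd68 and -0.39 to 0.23 for Cd163. Apart from the names as listed, Csf1r stayed between 0.76 and 1.24, with adjusted p from 0.181 to 0.669. A minimum mean of 10 removed C1qc and Fcgr1. The causes were not tested. Low read numbers limit C1qc, Fcgr1 and Fcgr4. No paired analysis was possible because the groups share no replicate number.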
